A study of Homo sapiens with 6 samples.

Results

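DNA replication licensing and synthesis genes are a set of 47 genes that load the replicative helicase at origins, switch it on, copy the DNA and supply its building blocks. The set was a list of gene symbols, each matched to 1 Ensembl gene ID of the deposited count table. The matching rule used no measured value, but the list was drawn up with earlier results of these data known. All 47 were found among the 63140 gene IDs of the table, and all 47 passed the filter on low counts that left 15221 genes for testing. The RNA-seq data comprised 3 libraries of Y79 cells in complete medium (controls) and 3 libraries of Y79 cells in complete medium with recombinant human arginase (rhArg, 2 U/mL, 72 h), an enzyme that breaks down arginine. Y79, a human retinoblastoma line, was labelled as wild type for genotype in both groups, and every library came from this single line. The study asked how the cell cycle and growth of retinoblastoma cells respond to arginine deprivation. Whether replicate libraries were grown as separate cultures is stated neither in the labels nor in the methods, and the p-values therefore cover the spread among these libraries alone, which could be technical.

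In G1 phase, the origin recognition complex (ORC) with CDC6 and CDT1 loads the ring-shaped MCM2-7 helicase onto DNA, a step called licensing, and geminin (GMNN) binds CDT1 and blocks reloading later in the cycle. Kinases with cyclin E then let CDC45 and the GINS complex join MCM2-7 and start unwinding. Polymerase alpha with primase starts each new strand, the clamp loader (RFC) places the PCNA clamp, and polymerases delta and epsilon extend the strands from a supply of deoxynucleotides. Many of these genes are known targets of E2F transcription factors, which the retinoblastoma protein restrains. RB1, the gene of this protein, is known to be lost in Y79, which the wild type label does not say. RNA of RB1 was still counted here.

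Since the set is known for E2F control, the promoters are described first, although they were searched after the counts had been fitted. RefSeq promoter windows (GRCh38.p14, 250 bases before to 50 bases after the gene start) were matched for 41 of the 47 members. The 4 E2F-type words TTTGGCGC, TTTCGCGC, TTTCCCGC and TTTGCCGC were searched on both strands, and words on opposite strands that overlap were each counted. At least 1 word lay in 20 of the 41 member windows (48.8%), in 5.39% of the 10748 windows of tested genes and in 3.33% of all 27305 windows of the same length. Of the replication partner genes described further on, 8 of 53 (15.1%) held a word. The word CCAAT lay in 53.7% of member windows and 36.6% of windows of tested genes. The word TTTGAA, known from promoters of G2/M genes, lay in 2.44% of member windows and 9.23% of windows of tested genes. These are matches of letters, given without a test, and they do not show binding of a factor.

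The 200 bases that precede the gene start are shown for MCM6 and MCM7, from a subgroup in which no gene passed the test, and for the members with a log2 fold change past 1 in either direction, with the E2F-type words in capitals. These genes were picked for display after their values were seen. Each is written 5′ to 3′ on the strand of the gene, and the last base stands next to the start. The MCM6 stretch lies at chr2:135876444-135876643 on the minus strand, MCM7 at chr7:100101398-100101597 on the minus strand, CDT1 at chr16:88803589-88803788, GMNN at chr6:24774737-24774936, CDC45 at chr22:19479720-19479919 and SKP2 at chr5:36151911-36152110, the last 4 on the plus strand.
MCM6: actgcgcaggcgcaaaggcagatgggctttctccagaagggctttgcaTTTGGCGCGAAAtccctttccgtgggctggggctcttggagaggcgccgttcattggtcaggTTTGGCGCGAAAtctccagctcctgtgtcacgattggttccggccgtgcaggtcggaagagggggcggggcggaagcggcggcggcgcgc
MCM7: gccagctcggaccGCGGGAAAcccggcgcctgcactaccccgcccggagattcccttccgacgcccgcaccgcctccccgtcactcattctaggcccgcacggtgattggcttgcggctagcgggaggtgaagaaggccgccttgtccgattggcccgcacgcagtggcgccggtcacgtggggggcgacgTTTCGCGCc
CDT1: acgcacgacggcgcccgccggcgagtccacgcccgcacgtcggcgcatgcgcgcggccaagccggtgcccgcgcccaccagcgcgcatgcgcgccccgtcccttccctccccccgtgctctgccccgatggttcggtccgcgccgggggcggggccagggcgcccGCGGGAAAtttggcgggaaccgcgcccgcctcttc
GMNN: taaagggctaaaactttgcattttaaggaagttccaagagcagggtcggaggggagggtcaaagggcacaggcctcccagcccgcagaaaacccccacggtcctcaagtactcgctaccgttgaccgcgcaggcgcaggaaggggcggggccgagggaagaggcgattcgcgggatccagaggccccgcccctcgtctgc
CDC45: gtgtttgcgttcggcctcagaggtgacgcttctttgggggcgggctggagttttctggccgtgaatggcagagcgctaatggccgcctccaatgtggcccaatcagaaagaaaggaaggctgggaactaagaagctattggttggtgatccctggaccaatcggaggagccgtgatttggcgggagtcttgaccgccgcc
SKP2: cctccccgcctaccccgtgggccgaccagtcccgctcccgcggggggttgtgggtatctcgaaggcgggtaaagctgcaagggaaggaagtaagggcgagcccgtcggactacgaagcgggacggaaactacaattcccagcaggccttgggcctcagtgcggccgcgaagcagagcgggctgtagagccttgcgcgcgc
MCM6 holds 4 words in 2 overlapping pairs, MCM7 holds 2 words at opposite ends of the stretch, and CDT1 holds 1 word that begins 35 bases before the start. The windows of GMNN, CDC45 and SKP2 hold none of the 4 words, which says only that these exact letters are not there.

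Depth was similar in the 6 libraries, with totals between 12580622 and 13747351 counts. The members held 0.646% to 0.728% of each library's counts, and their single counts lay between 151 (POLA2 in an rhArg library) and 8017 (POLE in an rhArg library), so no member was close to the limit of counting. Replicates differed beyond sampling noise (chi-square divided by its degrees of freedom from 3.62 to 16.2), so none were merged. Of the 11 listed retinoblastoma and photoreceptor precursor genes, all 11 had a mean normalized count of at least 8.02 in both groups. Their summed level was 80490 to 98120 normalized counts in controls and 45460 to 46230 with rhArg. Most of it came from MYCN and OTX2, and MYCN fell by 2.05 on the log2 scale (adjusted p = 7.64e-10, edgeR). The list did not move together. OTX2, NRL, ARR3 and SYK were also lower at an adjusted p under 0.05 (edgeR). CRX and TFF1 were higher, by 0.62 and 1.99 (adjusted p = 2.27e-05 and 2.00e-04, edgeR). RCVRN, THRB, DEK and RB1 did not pass. Markers of 4 other cell types summed to at most 215 normalized counts in a library. In those 4 lists 7 markers had a mean of 0 in both groups, among them RLBP1, AQP4, COL3A1 and CDH5. The sum of the 4 Muller glia markers was at most 18.3 in controls and 165 to 215 with rhArg, nearly all from SLC1A3. The sum of the 4 pigment epithelium markers was 5.39 to 10.9 in controls and 109 to 133 with rhArg. Nearly all of the rhArg sum came from BEST1, which had a mean of 2.69 in controls. Of the exon bases of BEST1, 14.6% lie in another gene. The part of these markers in the results was not tested. In bulk RNA, fewer cells in a phase of the cycle and less RNA per cell cannot be told apart.

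Across the 47 members, the response to rhArg was small for most genes and uneven in direction. In edgeR's quasi-likelihood test at an adjusted p under 0.05, 5 members were higher with rhArg, 20 were lower and 22 did not pass. The 25 members called amount to 53.2% of the set, below the 61.7% of all tested genes that were called in either direction. The 5 higher members (10.6%) stand against 30.7% of all tested genes called higher, and the 20 lower members (42.6%) against 30.9% called lower. With a log2 fold change past 1 in size as well, 4 members (8.51%) were called, CDT1 as higher and SKP2, CDC45 and GMNN as lower, against 23.4% of all tested genes. The median log2 fold change of the members was -0.19 against -0.0050 for all tested genes, and the median size of the change, regardless of sign, was 0.37 against 0.51. A change of at most 0.25 in size was found in 22 members (46.8%) and in 26.3% of tested genes. In 32 of the 47 members the libraries of the groups did not overlap (8 above and 24 below the controls), a share close to the 66.5% of all tested genes.

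**Figure D1:**
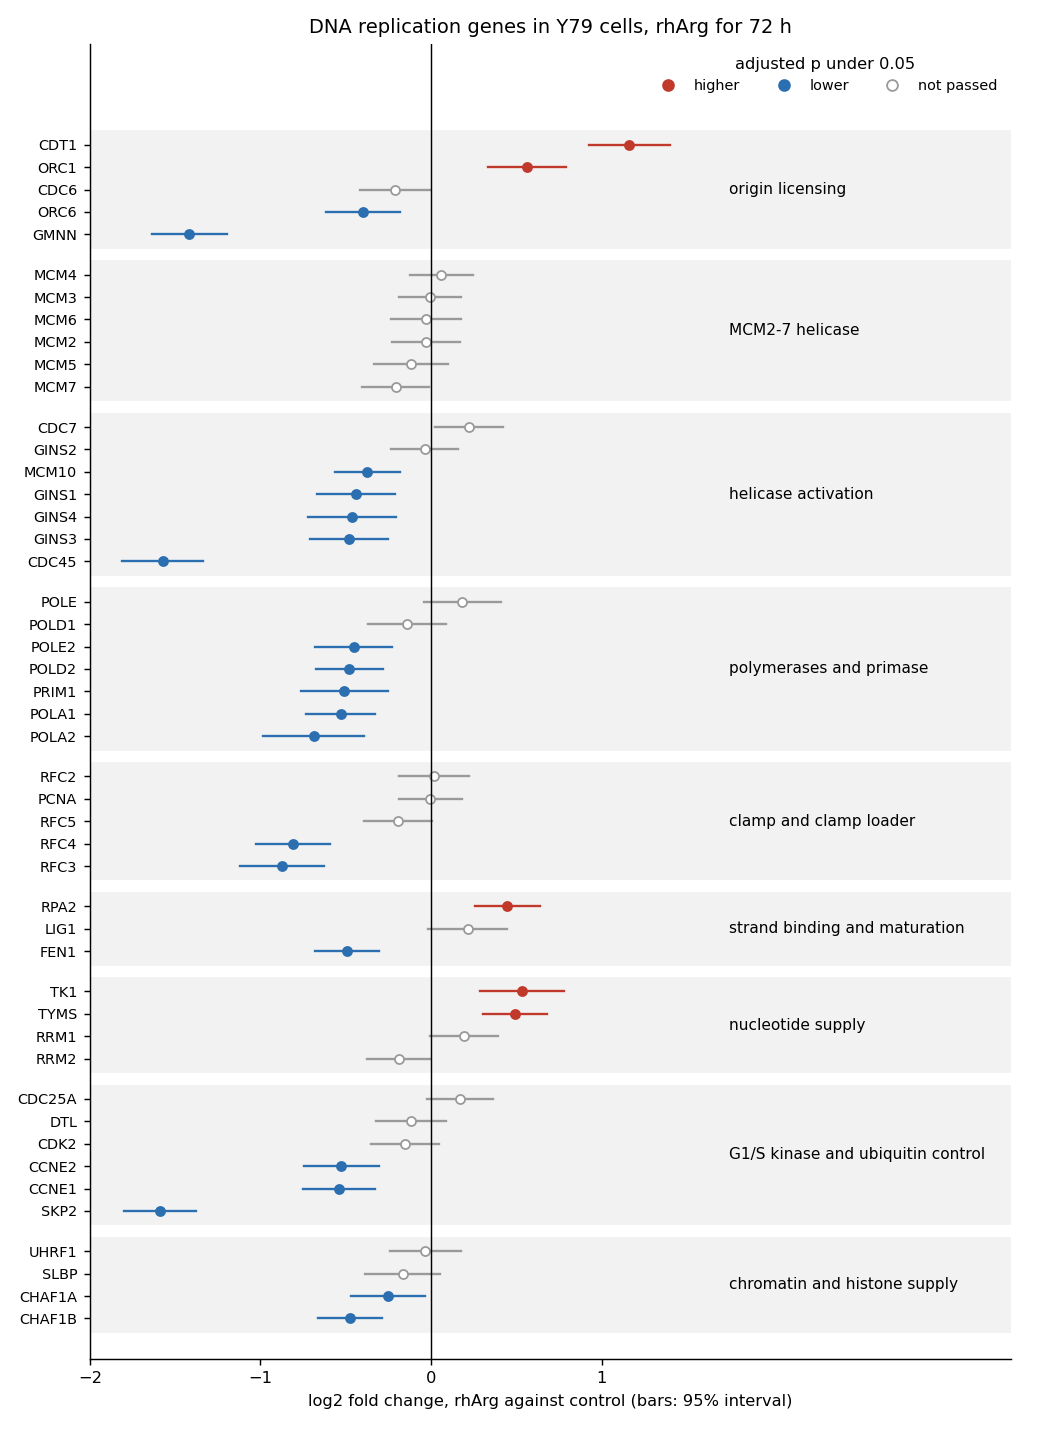
Log2 fold change (rhArg against control, x axis) of the 47 members, grouped by role, with 95% intervals from the edgeR fit that are not adjusted for the number of genes. Filled points passed an adjusted p of 0.05; CDT1 lies farthest to the right at 1.16, SKP2 farthest to the left at -1.59, and the 6 MCM2-7 genes lie between -0.21 and 0.061.

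The licensing factors moved in opposite directions. CDT1, the loader that brings MCM2-7 to ORC, had normalized counts of 1818, 2201 and 1576 in the control libraries and 4263, 4264 and 3988 in the rhArg libraries. Each rhArg library lay far above each control, and the log2 fold change was 1.16 ± 0.11 (SE, n = 3 per group, adjusted p = 2.51e-07, edgeR), or 2.24-fold. GMNN, which encodes the CDT1 inhibitor geminin, had 952, 853 and 790 normalized counts in controls and 320, 329 and 323 with rhArg. It was 2.67-fold lower, with a log2 fold change of -1.42 ± 0.10 (SE, n = 3 per group, adjusted p = 1.41e-08, edgeR) and almost no spread among the rhArg libraries.

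Within each library, the log2 ratio of CDT1 to GMNN per kilobase of exon was 0.78, 1.21 and 0.84 in controls and 3.58, 3.54 and 3.47 with rhArg. The mean ratio moved from 0.94 ± 0.23 to 3.53 ± 0.055 (SD, n = 3 each), a difference of 2.59 on the log2 scale that needs no normalization between libraries. CDT1 RNA was the more abundant of the pair per kilobase in all 6 libraries, and the rhArg libraries lay far above every control.

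ORC1, the largest ORC subunit and the one whose level is known to vary with the cell cycle, had 669, 842 and 659 normalized counts in controls and 1034, 1078 and 1095 with rhArg. The groups did not overlap, and the log2 fold change was 0.56 ± 0.11 (SE, n = 3 per group, adjusted p = 2.77e-04, edgeR). ORC6, the smallest subunit, fell by 0.40 on the log2 scale (adjusted p = 2.94e-03, edgeR). CDC6, the ATPase that works with CDT1, had a log2 fold change of -0.21 that did not pass (adjusted p = 0.0703, edgeR), with overlapping groups. It passed as lower without control replicate 1 (adjusted p = 0.0185). The 5 licensing members thus divided into 2 higher, 2 lower and 1 not passed, with a median of -0.21. Those called were 80.0% of the 5, against 61.7% of all tested genes.

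**Figure D2:**
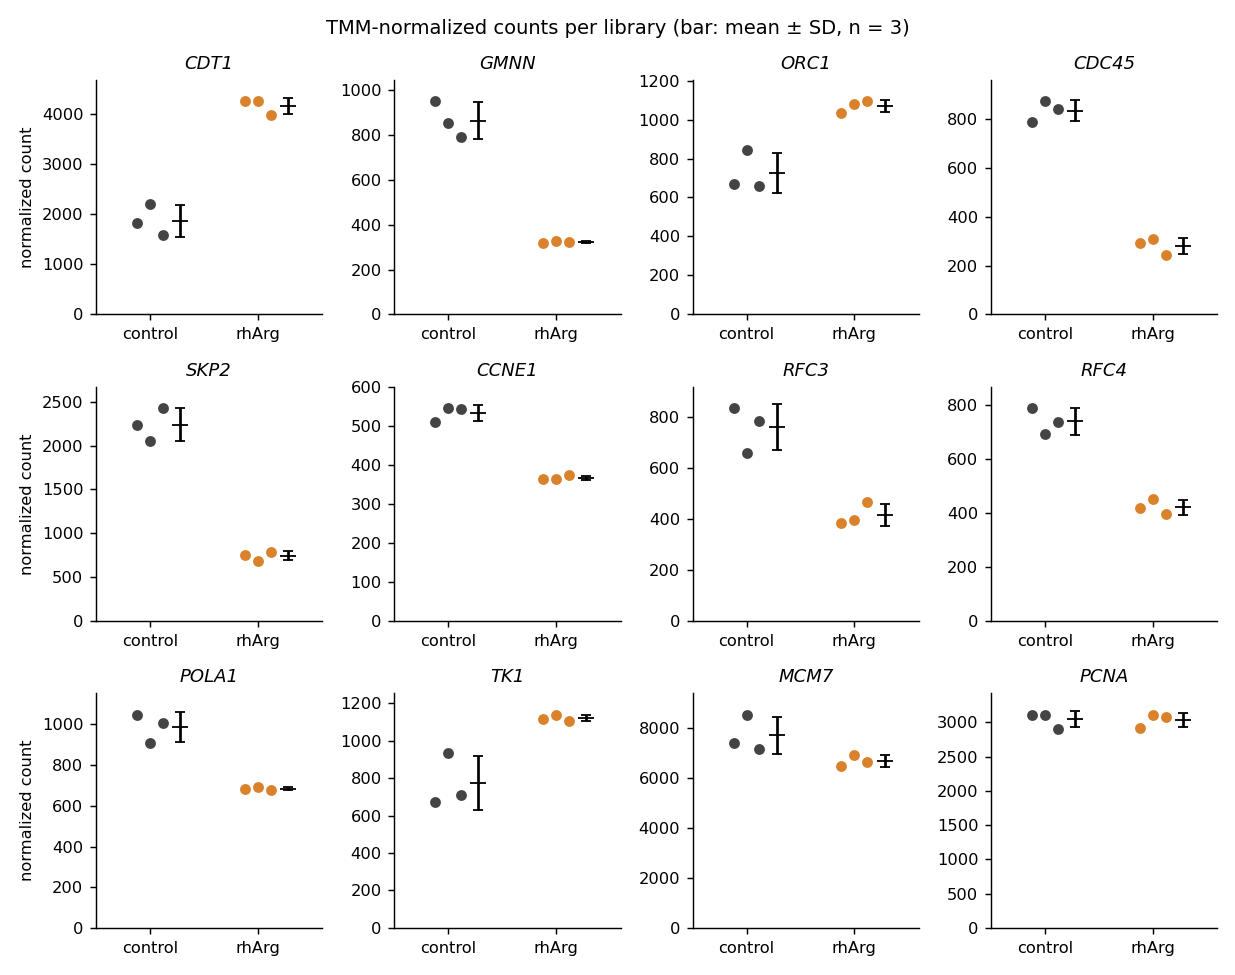
TMM-normalized counts (y axes from 0) of 12 members in each control and rhArg library, with the mean ± SD of each group (n = 3). CDT1, ORC1 and TK1 lie higher in all rhArg libraries, GMNN, CDC45, SKP2, CCNE1, RFC3, RFC4, POLA1 and MCM7 lie lower in all of them, and the PCNA groups overlap.

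The 6 genes of the MCM2-7 helicase, the ring that unwinds DNA ahead of the fork, differed little between the groups. None passed the edgeR test, 1 of them (MCM7) had an unadjusted p under 0.05, and DESeq2 also called none. Of all tested genes, 61.7% passed the edgeR test. The log2 fold changes were -0.030 for MCM2, -0.0051 for MCM3, 0.061 for MCM4, -0.12 for MCM5, -0.029 for MCM6 and -0.21 for MCM7. The median was -0.030, and the 95% intervals of the 6 genes together spanned -0.40 to 0.25, so that a fall by over 24.4% or a rise by over 18.5% lay outside all of them. MCM7 was the member that changed most, with 7404, 8526 and 7164 normalized counts in controls and 6454, 6915 and 6635 with rhArg. Its groups did not overlap but its adjusted p was 0.0630 (edgeR), and it fell to 0.0253 without control replicate 1 and to 0.0327 without control replicate 3. Of the exon bases of MCM7, 15.3% lie in the neighbouring AP4M1, and of those of MCM2, 23.6% lie in an unnamed gene.

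Per kilobase of exon, the 6 MCM genes also kept most of their order of levels. In controls it ran MCM7, MCM3, MCM2, MCM5, MCM4 and MCM6, from 1552 down to 431 normalized counts per kilobase. With rhArg MCM3 stood first at 1484 and MCM7 next at 1344, and MCM4 and MCM5 also traded places. The highest level was 3.60 times the lowest in controls and 3.51 times with rhArg. The order and these ratios also depend on the annotated exon length, which joins all isoforms. MCM4 and MCM3 had means of 5633 and 5429 normalized counts in controls, over 9852 and 3645 exon bases. In controls the libraries of MCM7 and MCM3, of MCM2 and MCM5, and of MCM5 and MCM4 overlapped per kilobase, so the order within these pairs was not set apart by their spread.

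The 4 MCM2-7 members with a promoter window (MCM2, MCM3, MCM6 and MCM7) each held at least 2 of the E2F-type words, as in the MCM6 and MCM7 sequences above. Over the whole set, a word lay in 12 of 19 windows of members that did not pass (63.2%), in 6 of 18 windows of lower members (33.3%) and in 2 of 4 windows of higher members. These shares are a description of small groups.

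Of the 7 factors that turn the loaded ring into an active helicase, 5 were lower and 2 (GINS2 and CDC7) did not pass, with a median of -0.44. The 5 lower factors were 71.4% of the 7, against 30.9% of all tested genes called lower. CDC45, which joins MCM2-7 and GINS to form the moving helicase, fell most. It had 792, 876 and 843 normalized counts in controls and 293, 307 and 243 with rhArg, with no overlap. The log2 fold change was -1.57 ± 0.11 (SE, n = 3 per group, adjusted p = 9.08e-09, edgeR), or 2.98-fold lower. Of the GINS complex, GINS1, GINS3 and GINS4 fell by 0.44, 0.48 and 0.47 on the log2 scale (adjusted p = 2.28e-03, 1.20e-03 and 3.53e-03, edgeR), and GINS2 had a log2 fold change of -0.037 (adjusted p = 0.747, edgeR; 95% interval -0.23 to 0.16). MCM10, a scaffold needed for helicase start, fell by 0.37 (adjusted p = 1.80e-03, edgeR). CDC7, the kinase that phosphorylates MCM2-7 at origins, had a log2 fold change of 0.22 with an adjusted p of 0.0507 (edgeR) and groups that did not overlap. CDC7 passed with RLE factors (adjusted p = 0.0494), upper-quartile factors (0.0318) and the stricter filter (0.0474).

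Within GINS, a complex of single copies of its 4 subunits, the order of mean levels per kilobase was GINS2, GINS3, GINS1 and GINS4 in both groups. With rhArg the libraries of GINS1 and GINS4 overlapped. The highest mean was 3.41 times the lowest in controls and 4.58 times with rhArg. GINS2 was at 252 and 246 normalized counts per kilobase and GINS4 at 74.0 and 53.6. Here too the order depends on annotated exon length, which is 8017 bases in GINS1 and 3219 in GINS2. Of the exon bases of GINS4, 23.4% lie in another gene. The log2 ratio of MCM10 to MCM2 per kilobase was -0.99, -1.27 and -1.02 in controls and -1.46, -1.50 and -1.36 with rhArg, lower in every rhArg library.

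**Figure D3:**
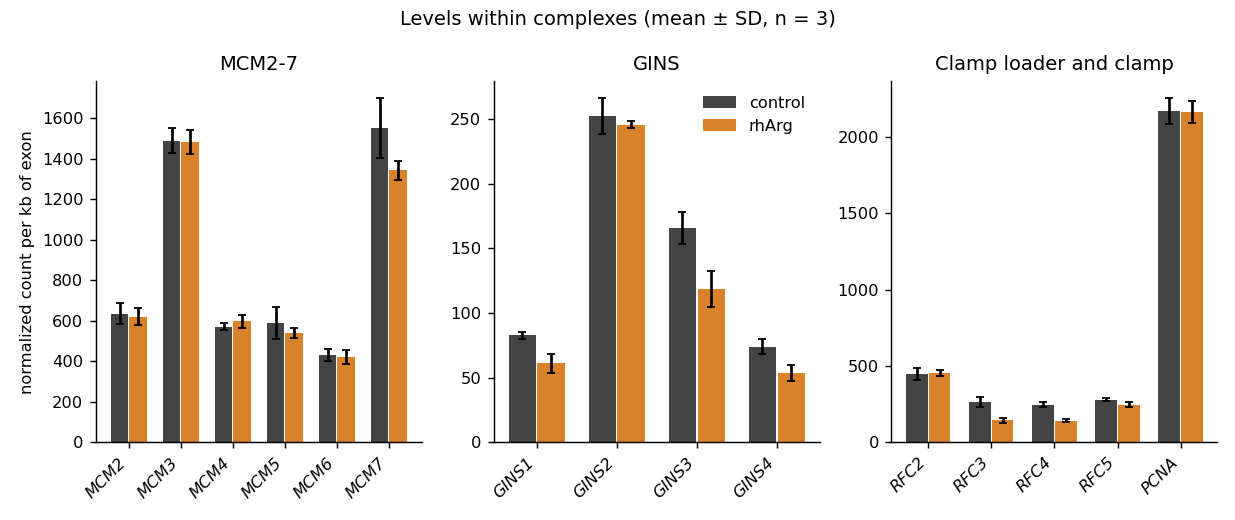
Normalized counts per kilobase of exon (y axes from 0, a different scale in each panel) for MCM2-7, GINS and the clamp loader with PCNA, as mean ± SD of 3 libraries. The bars of MCM2 to MCM6 and of PCNA are nearly level between the groups, whereas GINS1, GINS3, GINS4, RFC3 and RFC4 are lower with rhArg.

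Of the 7 genes of polymerases and primase, 5 were lower and 2 (POLD1 and POLE) did not pass, with a median of -0.48. This is 71.4% lower, against 30.9% of all tested genes. The falls included each of the 3 members that encode polymerase alpha and primase. POLA1, the catalytic subunit of polymerase alpha, had 1048, 908 and 1008 normalized counts in controls and 684, 692 and 680 with rhArg, a log2 fold change of -0.53 ± 0.095 (SE, n = 3 per group, adjusted p = 1.69e-04, edgeR). POLA2, its accessory subunit and the member with the fewest counts, had 228, 244 and 284 in controls and 157, 168 and 146 with rhArg, a log2 fold change of -0.69 ± 0.14 (SE, n = 3 per group, adjusted p = 4.64e-04, edgeR). PRIM1, the catalytic primase subunit, had 765, 584 and 596 in controls and 417, 484 and 467 with rhArg, a log2 fold change of -0.51 ± 0.12 (SE, n = 3 per group, adjusted p = 1.59e-03, edgeR). In none of these 3 genes did the groups overlap. Of the exon bases, 21.3% in POLA2 and 19.1% in PRIM1 lie in another gene. PRIM2, the other primase subunit and no member of the set, was looked at after these values were seen and had a log2 fold change of 0.24 (adjusted p = 0.161, edgeR).

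For the 2 enzymes that extend the strands, the catalytic and the smaller subunits differed in call. The catalytic subunits POLD1 and POLE had log2 fold changes of -0.14 (adjusted p = 0.276, edgeR) and 0.18 (adjusted p = 0.146, edgeR), with overlapping groups. The accessory subunits POLD2 and POLE2 fell by 0.48 (adjusted p = 3.17e-04, edgeR) and 0.45 (adjusted p = 1.46e-03, edgeR). The difference between catalytic and accessory subunits was not tested. Both catalytic calls depended on 1 control library, since POLD1 passed as lower without control replicate 1 (adjusted p = 0.0271) and POLE as higher without control replicate 2 (adjusted p = 0.0278).

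The clamp and its loader divided by subunit. PCNA, the sliding clamp whose protein the study also followed, had 3107, 3111 and 2906 normalized counts in controls and 2917, 3110 and 3072 with rhArg. The groups overlapped fully, and the log2 fold change was -0.0039 (95% interval -0.19 to 0.18, adjusted p = 0.973, edgeR). RFC2 had a log2 fold change of 0.020 (95% interval -0.19 to 0.23, adjusted p = 0.872, edgeR) and RFC5 -0.19 (adjusted p = 0.0897, edgeR), which passed as lower without control replicate 2 (0.0440).

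RFC3, another small subunit of the same loader, had 835, 659 and 782 normalized counts in controls and 384, 395 and 466 with rhArg, a log2 fold change of -0.87 ± 0.12 (SE, n = 3 per group, adjusted p = 8.78e-06, edgeR). RFC4 had 788, 692 and 734 in controls and 419, 450 and 394 with rhArg, a log2 fold change of -0.81 ± 0.10 (SE, n = 3 per group, adjusted p = 4.92e-06, edgeR). Every rhArg library lay below every control for both genes. Per kilobase the order of the means, RFC2, RFC5, RFC3 and RFC4, held in both groups, but the highest was 1.82 times the lowest in controls and 3.23 times with rhArg. The libraries of RFC3 overlapped those of RFC4 in both groups and those of RFC5 in controls, so the order there was not set apart by their spread. In controls the means of RFC5, RFC3 and RFC4 were 280, 266 and 246 normalized counts per kilobase, and with rhArg they were 245, 145 and 140.

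The 3 genes of strand binding and maturation went separate ways. RPA2, a subunit of the protein that coats single-stranded DNA, was higher with a log2 fold change of 0.45 (adjusted p = 4.30e-04, edgeR). FEN1, the nuclease that trims the flaps of Okazaki fragments, had 1764, 1868 and 1769 normalized counts in controls and 1248, 1331 and 1266 with rhArg, a log2 fold change of -0.49 ± 0.088 (SE, n = 3 per group, adjusted p = 1.69e-04, edgeR). LIG1, the ligase that seals the fragments, had a log2 fold change of 0.22 (adjusted p = 0.0979, edgeR) and passed as higher without control replicate 2 (adjusted p = 9.68e-03).

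Nucleotide supply had the highest median of the 9 subgroups, at 0.34, with 2 members higher and 2 not passed. The 2 higher members were 50.0% of this subgroup, against 30.7% of all tested genes called higher. TK1, the thymidine kinase of the salvage path, had 674, 937 and 712 normalized counts in controls and 1118, 1140 and 1108 with rhArg. All rhArg libraries were above the controls, and the log2 fold change was 0.54 ± 0.12 (SE, n = 3 per group, adjusted p = 8.58e-04, edgeR). TYMS, which makes thymidylate de novo, was higher by 0.49 on the log2 scale (adjusted p = 1.71e-04, edgeR), but 47.9% of its exon bases lie in ENOSF1, so its reads are less certain. Ribonucleotide reductase differed by subunit, with log2 fold changes of 0.19 for the large subunit RRM1 (adjusted p = 0.0833, edgeR) and -0.19 for the small subunit RRM2 (adjusted p = 0.0691, edgeR). Both passed without control replicate 1, at adjusted p = 0.0401 and 0.0194. The log2 ratio of RRM2 to RRM1 per kilobase was 0.75, 1.02 and 1.00 in controls and 0.55, 0.57 and 0.50 with rhArg, lower in every rhArg library although neither gene passed by itself.

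Of the 6 genes of G1/S kinase and ubiquitin control, 3 were lower and 3 did not pass, with a median of -0.34. This is 50.0% lower, against 30.9% of all tested genes. Calls in either direction also made up 50.0%, below the 61.7% of all tested genes. SKP2, the F-box protein that marks the CDK inhibitor p27 and CDT1 for destruction, fell more than any other member. It had 2234, 2051 and 2430 normalized counts in controls and 759, 688 and 786 with rhArg, a log2 fold change of -1.59 ± 0.10 (SE, n = 3 per group, adjusted p = 2.44e-09, edgeR), or 3.01-fold lower. CCNE1, a cyclin E gene, had 511, 547 and 544 in controls and 365, 365 and 374 with rhArg, a log2 fold change of -0.54 ± 0.099 (SE, n = 3 per group, adjusted p = 2.16e-04, edgeR). CCNE2, the other cyclin E gene, had 456, 436 and 462 in controls and 309, 310 and 322 with rhArg, a log2 fold change of -0.52 ± 0.10 (SE, n = 3 per group, adjusted p = 3.99e-04, edgeR).

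The cyclin E genes fell by nearly the same proportion, and their log2 ratio per kilobase was 1.08 ± 0.081 in controls and 1.07 ± 0.012 with rhArg (SD, n = 3 each). Of the exon bases of CCNE2, 37.1% lie in INTS8. CDK2, the kinase that cyclin E activates and whose protein the study also followed, had 874, 891 and 892 normalized counts in controls and 747, 850 and 797 with rhArg. Its groups did not overlap, but the log2 fold change of -0.15 (95% interval -0.35 to 0.049) did not pass (adjusted p = 0.177, edgeR). CDC25A, the phosphatase that activates CDK2, had a log2 fold change of 0.17 (adjusted p = 0.113, edgeR). DTL, the substrate receptor that marks CDT1 for destruction in S phase, had a log2 fold change of -0.12 (adjusted p = 0.299, edgeR).

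Of the 4 genes of chromatin and histone supply, 2 were lower and 2 did not pass, with a median of -0.21. This is 50.0% lower, against 30.9% of all tested genes. Calls in either direction also made up 50.0%, below the 61.7% of all tested genes. CHAF1B, a subunit of the histone chaperone CAF-1, had 2693, 2907 and 2598 normalized counts in controls and 1963, 1949 and 1987 with rhArg, a log2 fold change of -0.47 ± 0.088 (SE, n = 3 per group, adjusted p = 2.18e-04, edgeR). CHAF1A, its large partner, fell by 0.25 (adjusted p = 0.0438, edgeR), a call that was lost without control replicate 2 (0.121), without rhArg replicate 1 (0.107), 2 (0.0686) or 3 (0.140), and with upper-quartile factors (0.0664). UHRF1, which guides maintenance DNA methylation, had a log2 fold change of -0.033 (adjusted p = 0.790, edgeR), and SLBP, which binds histone mRNA, -0.17 (adjusted p = 0.170, edgeR).

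**Figure D4:**
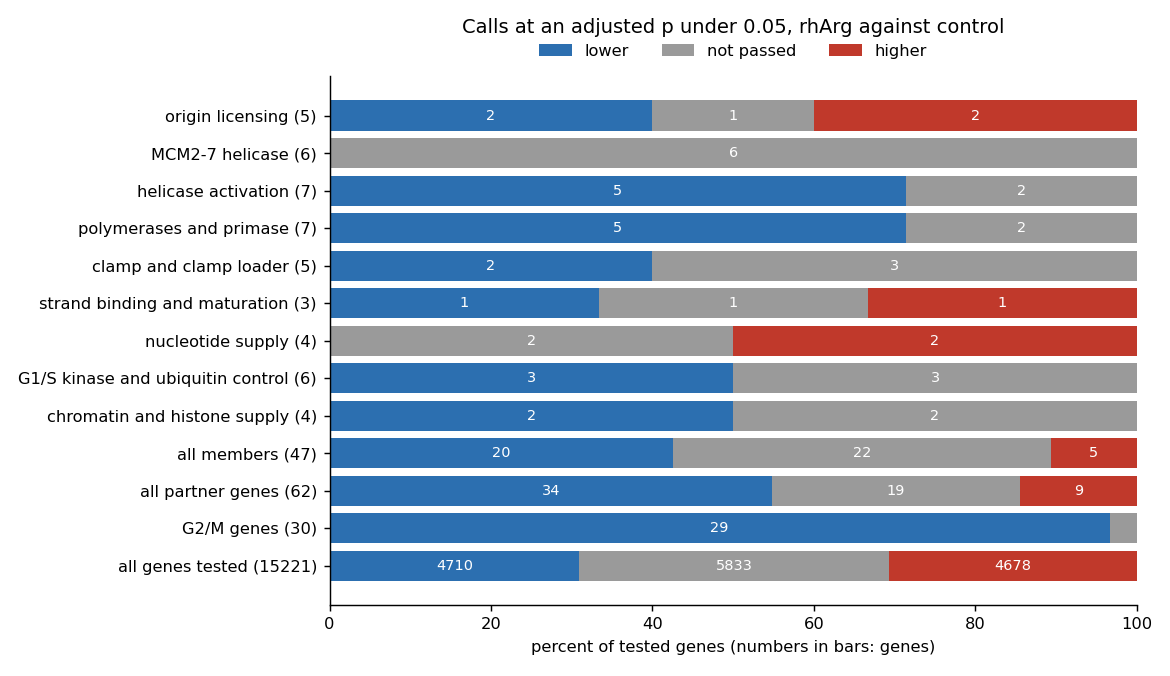
Share of tested genes (x axis, percent) called lower, not passed or higher with rhArg at an adjusted p under 0.05, for the 9 subgroups, all members, the partner genes, G2/M genes and all tested genes, with the number tested in parentheses and gene counts in the bars. The MCM2-7 bar holds 6 genes that did not pass, whereas the bars of helicase activation and of polymerases hold 5 lower genes of 7. Of all tested genes, 30.9% were lower and 30.7% higher.

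A further 63 replication genes that work beside the members were listed as partners, of which 62 were tested. Of these, 9 were higher, 34 were lower and 19 did not pass, with a median log2 fold change of -0.33. These counts are 14.5% higher and 54.8% lower, against 30.7% and 30.9% of all tested genes and 10.6% and 42.6% of the members, without a test of the difference. All 8 partners of strand binding and maturation fell, among them the topoisomerases TOP1, by 1.14, and TOP2A, by 1.11 (adjusted p = 2.17e-08 and 3.12e-07, edgeR). RNASEH2C, named here for its limit, fell by 0.25 (adjusted p = 0.0462, edgeR), a call lost in several alternatives. Among these were DESeq2, the replicate block and leaving out any rhArg library. Of the exon bases of RNASEH2C, 28.9% lie in another gene. RPA1 and RPA3, the other subunits of the complex of RPA2, fell by 0.39 and 0.75 (adjusted p = 1.31e-03 and 2.13e-03, edgeR), whereas RPA2 was higher. RPA1 and RPA3 were picked for this contrast after their values were seen. RNASEH2A fell by 2.58 (adjusted p = 2.04e-05, edgeR) on a mean of 32.3 and 5.29 normalized counts, with 53.3% of its exon bases in another gene.

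DBF4, the activator of the CDC7 kinase, fell by 1.14 (adjusted p = 2.23e-07, edgeR), beside a CDC7 log2 fold change of 0.22. CCNA2, the cyclin A gene of S phase and G2, fell by 1.01 (adjusted p = 2.79e-07, edgeR). DSCC1, of an alternative clamp loader, fell by 1.11 (adjusted p = 1.83e-05, edgeR). CHTF8, of the same loader, fell by 1.22 (adjusted p = 6.48e-03, edgeR) on 23.2 and 9.83 normalized counts, with 84.6% of its exon bases in another gene. In the other subgroups the partners with the largest change were ORC3 (-0.92), MCM9 (-0.43), POLD3 (-0.53), SAMHD1 (0.62) and ASF1B (0.59). ORC3 fell while ORC1 was higher, and SAMHD1, which breaks down deoxynucleotides, was higher as were TK1 and TYMS.

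Genes of the phases before and after replication were set beside the members. Of 30 G2/M genes, 29 were lower (96.7%, against 30.9% of all tested genes), with a median of -1.27. Past a log2 fold change of -1, 20 of the 30 were lower, against 1677 of all 15221 tested genes. TOP2A and CDC25C stand both in this list and among the partners, so they were counted in each. Of 23 tested genes of the E2F, pocket protein and D cyclin families and their inhibitors, 7 were higher (30.4%) and 8 lower (34.8%). These shares were close to the 30.7% and 30.9% of all tested genes, and the median was -0.15. The log2 fold changes of this list ran from -3.55 for CCND1 to 2.57 for CDKN1A, its 2 extremes. The median fall of the replication members was thus smaller than that of the G2/M genes, given here as a description because all lists come from the same 6 libraries.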

How the data were processed

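RNA-seq of Y79 cells (3 control and 3 rhArg libraries) was used. Per the methods, reads were cleaned with SOAPnuke and mapped to hg38 with HISAT2 (versions: not given in the sources used here). As for the counts, the authors deposited raw counts per gene from featureCounts 2.0.1 with Ensembl annotation 112, counted without regard to strand, so genes that overlap cannot be told apart there. The exon length column, which joins all isoforms, served for values per kilobase. Unused columns of per-sample values numbered 0.

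Symbols came from a gene name table that held 62541 of the 63140 IDs. The fit used edgeR 4.0.16 in R 4.3.3 (filterByExpr, TMM, glmQLFit and glmQLFTest, with condition as its single term) and Benjamini-Hochberg adjustment over 15221 tested genes, which held at least 99.77% of the counts of each library. TMM factors were 0.975 to 1.02 and the common dispersion 0.0110. To normalize, counts were scaled by effective library size to the average library. TMM centres the typical gene near 0, which hides any change shared by all genes. The procedure was tested on simulated counts, in which a small set of genes changed, both up and down, and the dispersion was fixed. That setting does not cover a change in most genes, such as the 61.7% called here.

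The members and lists were chosen with earlier results of these data known. Values per library are given for members with an adjusted p under 0.05 and a log2 fold change of at least 0.5 in size, for the member with the largest change in each subgroup, and for PCNA and CDK2. Partners are named when past a log2 fold change of 1 or as the largest in their subgroup. Other exceptions are marked in the text. Alternatives were DESeq2 1.42.0, upper-quartile or RLE factors, plain library totals, dropping the filter, raising it (1 CPM throughout a group, mean count 20), leaving out each library, and a replicate block. Promoter sequences are from RefSeq, matched by symbol, and MCM4, MCM5, GINS4, RPA2, CCNE2 and CDK2 had no entry. A further list of cell type markers is not reported here.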

Additional observations from a re-analysis of the deposited data

How the results depend on the processing

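The counts of members and partners higher or lower stayed within 1.5 times under all 13 alternatives, and 31 of the 47 members kept both call and direction in every one. No called member changed direction, and CHAF1A was the single called member to lose its call. With each library left out in turn, the median of polymerases and primase ranged from -0.53 to -0.41. Log2 fold changes near 0 changed sign in members that did not pass. MCM3 was 0.020 and PCNA 0.021 with upper-quartile factors, and PCNA was 2.43e-05 with library totals. Leaving out a library, MCM2 ranged from -0.082 to 0.020, MCM3 from -0.045 to 0.016, MCM6 from -0.082 to 0.032, PCNA from -0.050 to 0.023, RFC2 from -0.053 to 0.069 and UHRF1 from -0.12 to 0.043. The cause was not tested. With the replicate block, 5 members were higher and 20 lower, as without it, and the median of all members was -0.19. Libraries with the same number did not deviate together (correlations -0.078, 0.059 and 0.0040), so the numbers were not taken to pair them. Log2 standard errors of the members lay between 0.086 and 0.14. The smallest called change was 0.25 in size (CHAF1A), and the largest that did not pass was 0.22 (CDC7). Changes below about that size were not detectable with 3 libraries per group.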

Other observations

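The libraries of a group did not contribute alike to the spread of the members. Control replicate 2 held the highest normalized count of its group in 24 of the 47 members and rhArg replicate 2 in 28. The summed normalized counts of the members were 90070, 98620 and 91060 in controls and 85400, 90380 and 86370 with rhArg, so that the rhArg library with the highest sum exceeded the control with the lowest. The 47 members lie on 21 chromosomes, and the closest pair, CHAF1A and UHRF1 on chromosome 19, is 458062 bases apart.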
